A study of Mus musculus with 7 samples.

Results

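Hepatocytes differ along the path of blood through the liver lobule, and genes that are most active in the hepatocytes nearest the portal vein are called periportal. Described here are 9 such genes, Hal, Sds, Etnppl, Aldh1b1, Gls2, Pigr, Uroc1, Hsd17b6 and Cdh1, chosen by name out of 19951 genes measured. All 9 were present in the count table, each read by 1 probe that the target annotation assigns to that gene alone. The samples were 6 Albumin-positive areas that were not marked by CLEC4F, in paraffin sections of formalin-fixed liver, from mice aged 24 weeks. Of these, 3 regions came from mice on the diet labelled NCD and 3 from mice on the diet labelled FFD, with 3 mice per diet in the study. Neither diet name is spelled out in the sources used here. Strain and sex are not given in the labels, the diet is entered there in the field for genotype, and no region is tied to a mouse. The p-values therefore measure the spread between regions, which need not be a spread between mice.

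As background, periportal hepatocytes receive blood rich in oxygen, amino acids and glucagon, and they carry out much of the liver's amino acid breakdown, urea formation and gluconeogenesis. Pericentral hepatocytes, next to the draining vein, make glutamine and hold much of the cytochrome P450 activity, under Wnt signals from nearby endothelium. Most of the 9 genes encode enzymes that release ammonia or handle small aldehydes, while Pigr moves antibody into bile and Cdh1 holds epithelial cells together. The assay, GeoMx, releases bar-coded probes from a chosen area with light and counts them by sequencing. It averages over every cell and every zone in the area, so the place of a transcript along the lobule was not measured.

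The regions held 2069102 to 3491371 counts over the 13095 genes tested, and intervals and limits here cover this counting depth and the spread between regions only. NCD regions held 1747 to 1940 nuclei and FFD regions 1077 to 1264. Counts over all targets came to 1.20 and 1.51 times the deduplicated reads in FFD 1 and FFD 2, against 0.996 to 1.015 in the other 4 regions, and its part in the results was not tested. NCD 1 and NCD 2 lay closest on the slide and were the most alike of the replicate pairs. Their counts differed by a chi-square of 1.28 per degree of freedom over 13095 genes, against 5.13 to 7.89 in the other pairs. Markers of hepatocytes were above the detection limit, set at 2 times the negative probe level, in every region for all 10 tested, and Albumin (Alb) took 2.95 to 7.74% of counts. Clec4f, the Kupffer cell lectin whose stain was to be absent, was also above the limit in every region, at 70.8 to 172 CPM. Levels are counts scaled by each region's upper quartile and given as CPM, and since probes differ in affinity, levels are compared between regions and never between genes. The negative probe level was 0.2406 to 0.2645 of the upper quartile in NCD regions and 0.1716 to 0.2055 in FFD regions. On the CPM scale the detection limit was therefore higher in NCD, and genes near it carry more background there. The part of this in their calls was not tested.

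In FFD regions Etnppl was several-fold lower and Aldh1b1 several-fold higher, in both cases with no overlap between the regions of the diets. Hal was lower in FFD, with 1 FFD region close to the NCD level. Sds, Gls2, Pigr, Uroc1, Hsd17b6 and Cdh1 did not pass the test, and most of them were far apart among the FFD regions themselves. Of the 9 genes 1 was higher and 2 were lower in FFD (edgeR, adjusted p under 0.05). Of all 13095 tested genes 5.94% were higher and 11.1% lower, 17.1% in all. With 9 genes, 3 of 9 is a small count to set against that share. Over all genes 778 were higher and 1459 lower, and the balance depended on the scaling, with 1138 and 893 under TMM, 1131 and 894 under DESeq2 size factors, 1129 and 604 under total counts and 3632 and 206 under negative probe scaling. DESeq2's Wald test gave 740 and 462, and background subtraction gave 723 and 795. The median log2 fold change of all tested genes was -0.11 in the reported scaling, -0.01 under TMM and 0.28 under negative probe scaling. Among the 9 genes the median was -0.15. In bulk areas such as these, fewer cells of a type and less RNA per cell cannot be told apart.

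**Figure D1:**
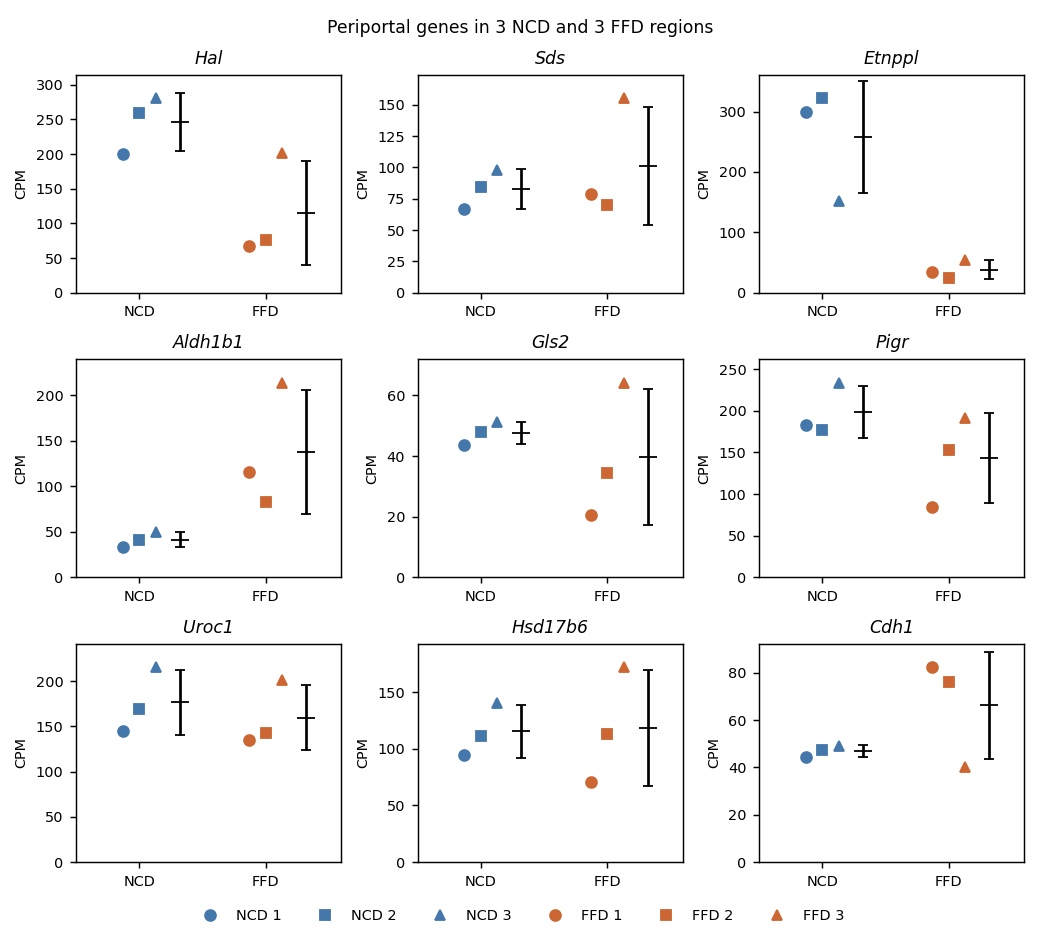
Levels of the 9 periportal genes in CPM (vertical axes, each from 0) in the 3 NCD regions (blue) and 3 FFD regions (orange), with symbols for region numbers and black bars for the mean ± SD (n = 3). Etnppl and Aldh1b1 do not overlap between the diets, and FFD 3 (orange triangle) is the highest FFD region in every panel but that of Cdh1.

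Etnppl encodes the lyase that splits phosphoethanolamine, a membrane lipid precursor, into acetaldehyde, ammonia and phosphate (gene ID 71760, GRCm38.p6 chromosome 3, 130617448 to 130635750). It stood at 299.5, 323 and 152 CPM in NCD regions 1 to 3. The 3 FFD regions, in the same order, gave 35.1, 24.3 and 55.0 CPM. Every FFD region was below every NCD region, and NCD 3, the lowest NCD region, still lay well above FFD 3. The means were 258 ± 92.5 in NCD and 38.1 ± 15.6 in FFD (SD, n = 3 each), a log2 fold change of -2.77 (SE 0.28, edgeR adjusted p 1.21e-05), or 6.81-fold lower. Of all tested genes, 24.5% were lower in FFD without overlap between the diets, and 36.7% did not overlap in either direction. Etnppl kept its direction and passed in 21 of 21 alternative settings, between -3.40 and -2.22, with adjusted p from 3.84e-09 to 0.0141. In FFD 2 its count was 2.67 times the negative probe level, so background is a part of its FFD level, and with that background subtracted the log2 fold change was -3.26.

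Other genes of phosphoethanolamine handling were lower in FFD in 2 further cases. Of 12 tested genes of the list, Etnppl included, 3 were lower and none higher, where 11.1% of all tested genes were lower and 5.94% higher. The list's median log2 fold change was -0.15, against -0.11 for all tested genes, and a difference from all genes was not tested. Etnk2, a kinase that makes phosphoethanolamine, fell from 173 ± 3.62 to 109 ± 16.8 CPM (log2 -0.67, SE 0.14, edgeR adjusted p 0.00512). Selenoi, which joins phosphoethanolamine to diacylglycerol, was lower by less (log2 -0.41, SE 0.13, edgeR adjusted p 0.0393). Pcyt2, the enzyme between those steps, stood at -0.37 (SE 0.15, adjusted p 0.0947) and did not pass. Phykpl, the lysine-pathway relative of Etnppl, stood at -0.11 (SE 0.15, adjusted p 0.637).

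Aldh1b1 encodes a mitochondrial aldehyde dehydrogenase that oxidises acetaldehyde and retinaldehyde (gene ID 72535, chromosome 4, 45799022 to 45804608). It stood at 33.1, 40.8 and 49.9 CPM in NCD 1 to 3 and at 116, 82.6 and 214 CPM in FFD 1 to 3. All 3 FFD regions were above all NCD regions, as were 12.2% of the tested genes, and FFD 3 was the highest. The means were 41.2 ± 8.41 and 137.5 ± 68.3 CPM, a log2 fold change of 1.71 (SE 0.27, edgeR adjusted p 0.000612), or 3.28-fold. The call was lost only with edgeR's robust option among 21 alternatives (adjusted p 0.0607, 6.55e-08 to 0.0607 across them). Leaving out FFD 3 gave a log2 fold change of 1.24, and with FFD 3 alone against NCD it was 2.36. In NCD 1 the count was 2.36 times the negative probe level, and subtraction of that background gave 2.06.

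Among 4 tested dehydrogenases of acetaldehyde and retinaldehyde, Aldh1b1 included, 2 were higher in FFD, none was lower, and the median log2 fold change was 0.56. A list of 4 is small to set against the 5.94% of all tested genes that were higher. Aldh1a1, the cytosolic retinaldehyde dehydrogenase, rose from 960.4 ± 109 to 1592 ± 378 CPM (log2 0.73, SE 0.19, edgeR adjusted p 0.0172). Aldh2, the main mitochondrial acetaldehyde dehydrogenase, stood at 0.39 (SE 0.17, adjusted p 0.129). FFD 3 did not stand out in those genes, at 0.992 times the mean of FFD 1 and FFD 2 for Aldh2 and 1.07 times for Aldh1a1, against 2.16 times for Aldh1b1.

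Hal encodes histidine ammonia-lyase, which opens histidine breakdown by releasing ammonia and urocanate (gene ID 15109, chromosome 10, 93488768 to 93516761). It stood at 199.8, 259 and 281 CPM in NCD 1 to 3 and at 67.1, 75.4 and 201 CPM in FFD 1 to 3. FFD 1 and FFD 2 lay far below the NCD regions, whereas FFD 3 overlapped with NCD 1. The means were 247 ± 42.0 and 115 ± 75.1 CPM, a log2 fold change of -1.12 (SE 0.30, edgeR adjusted p 0.0193). Without FFD 3 it was -1.79 (adjusted p 1.72e-06). With FFD 3 alone against NCD it was -0.30 (adjusted p 0.403). The call was also lost without NCD 2, NCD 3, FFD 1 or FFD 2 (adjusted p 0.0676, 0.0503, 0.0654 and 0.0866), with DESeq2 (0.246) and with edgeR's robust option (0.210).

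Uroc1 encodes urocanate hydratase, the next enzyme of the path (gene ID 243537, chromosome 6, 90333239 to 90364551). It stood at 145, 169 and 215 CPM in NCD regions and at 135, 143 and 201 CPM in FFD 1 to 3. The diets overlapped, and the log2 fold change was -0.15 (SE 0.18, edgeR adjusted p 0.594, approximate 95% interval -0.50 to 0.20). Amdhd1 and Ftcd, which complete the path, stood at -0.17 (SE 0.16) and -0.15 (SE 0.17), with adjusted p of 0.493 and 0.557. Of 4 histidine genes Hal passed the test, and a difference between Hal and the others was not tested. All 4 were highest in FFD 3 among the FFD regions and highest in NCD 3 among the NCD regions.

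Promoters were taken in order of p, and none was listed for Cdh1, the gene next after Hal. Shown are those of Etnppl, Aldh1b1 and Hal, the 3 genes past the test. Each is the 250 bases before the RefSeq start of the gene (GRCm38.p6, plus strand), at chr3:130617198-130617447, chr4:45798772-45799021 and chr10:93488518-93488767. RefSeq lists 2 starts for Etnppl, and the window of the outer one is printed. Of 6 motifs searched on both strands 5 are described here, and capitals mark matches.
Etnppl: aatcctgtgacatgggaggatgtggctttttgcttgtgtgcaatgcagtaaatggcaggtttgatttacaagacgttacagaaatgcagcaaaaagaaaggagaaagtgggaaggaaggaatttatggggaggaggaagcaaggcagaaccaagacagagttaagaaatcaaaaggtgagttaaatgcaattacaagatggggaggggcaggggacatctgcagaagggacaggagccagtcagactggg
Aldh1b1: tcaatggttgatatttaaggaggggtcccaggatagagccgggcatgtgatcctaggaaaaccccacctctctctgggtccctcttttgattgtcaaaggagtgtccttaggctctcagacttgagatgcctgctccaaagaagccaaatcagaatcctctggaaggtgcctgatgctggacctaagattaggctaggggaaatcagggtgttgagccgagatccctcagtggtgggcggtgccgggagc
Hal: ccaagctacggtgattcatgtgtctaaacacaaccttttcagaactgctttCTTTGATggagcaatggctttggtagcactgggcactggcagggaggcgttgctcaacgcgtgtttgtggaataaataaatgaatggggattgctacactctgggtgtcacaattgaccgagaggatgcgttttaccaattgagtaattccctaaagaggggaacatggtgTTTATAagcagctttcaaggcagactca
The 5 motifs were TATAAA (a core promoter box), TGACGTCA (the cyclic AMP response element of CREB), CAAAGTCCA (HNF4), TTGCGCAA (C/EBP) and CTTTGAT (TCF/LEF, of Wnt signalling). Hal held TATAAA on the minus strand, 28 bases before the start, and a TCF/LEF match on the plus strand, 199 bases before it. Etnppl and Aldh1b1 held none of the 6 searched. Over 32851 such windows of all genes, 12.4% held TATAAA, 3.21% CTTTGAT, 1.55% TGACGTCA, 0.383% CAAAGTCCA and 0.164% TTGCGCAA. A match or its absence in this window says nothing of binding in these livers.

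Sds encodes serine dehydratase, which turns serine into pyruvate and ammonia and is induced by glucagon (gene ID 231691, chromosome 5, 120476547 to 120483932). It stood at 66.6, 84.1 and 98.2 CPM in NCD 1 to 3 and at 78.5, 69.8 and 155 CPM in FFD 1 to 3. FFD 1 and FFD 2 lay within the NCD range and FFD 3 above it. The log2 fold change was 0.27 (SE 0.24, edgeR adjusted p 0.454, approximate 95% interval -0.20 to 0.74). With FFD 3 alone against NCD it passed at 0.89 (adjusted p 0.0118), and it passed at 0.64 under negative probe scaling (adjusted p 0.0244). Without FFD 3 it stood at -0.17 (adjusted p 0.507).

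Around Sds, serine, threonine and glycine genes were lower in 5 and higher in 1 of 17 cases. Among all tested genes 11.1% were lower and 5.94% higher. The median log2 fold change of the 17 was -0.24, against -0.11 for all tested genes. Gcat, of threonine breakdown, fell to -0.62 on the log2 scale (SE 0.13, edgeR adjusted p 0.0053). Gnmt and Sardh, which add and remove the methyl group of glycine, stood at -0.85 (SE 0.19, adjusted p 0.00847) and -0.68 (SE 0.18, adjusted p 0.0185). Dld, a subunit of the glycine cleavage system that other dehydrogenase complexes share, was the member that rose, at 0.53 (SE 0.14, adjusted p 0.0169). FFD 3 was the highest FFD region for 12 of the 17 genes, against 33.0% of all tested genes. In the same list NCD 3 was the highest NCD region for 12, against 31.8%. Agxt, the peroxisomal alanine-glyoxylate aminotransferase, was among the lower genes (log2 -0.88, SE 0.24, edgeR adjusted p 0.02165). In FFD 3 it stood at 1.99 times the mean of FFD 1 and FFD 2, at 131.7 CPM against an NCD mean of 160.8.

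Gls2 encodes the liver form of glutaminase, which releases ammonia from glutamine for the urea cycle (gene ID 216456, chromosome 10, 128194635 to 128210004). It stood at 43.8, 48.0 and 51.1 CPM in NCD regions 1 to 3. The 3 FFD regions, in the same order, gave 20.6, 34.3 and 64.2 CPM. The FFD regions lay on both sides of a narrow NCD range, 3.12-fold apart from lowest to highest against 1.17-fold in NCD. The log2 fold change was -0.28 (SE 0.26, edgeR adjusted p 0.478, approximate 95% interval -0.80 to 0.23). Without FFD 3 Gls2 passed as lower at -0.78 (adjusted p 0.00883), and with FFD 3 alone against NCD it stood at 0.42 (adjusted p 0.171). In FFD 1 its count was 1.89 times the negative probe level, below the detection limit, the 1 such case among the 54 values of the 9 genes.

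Glutamine and glutamate genes were split, with 3 higher and 3 lower of 15 tested, where 5.94% of all tested genes were higher and 11.1% lower. The median log2 fold change of the 15 was -0.18, against -0.11 for all tested genes. Gpt2, the mitochondrial alanine aminotransferase, rose from 117 ± 20.7 to 296 ± 41.3 CPM (log2 1.33, SE 0.16, edgeR adjusted p 5.61e-05). Got2, the mitochondrial aspartate aminotransferase, rose by 0.64 (SE 0.16, adjusted p 0.0159). The glutamine carrier Slc38a2 fell to -0.86 (SE 0.15, adjusted p 0.00115) and the asparaginase Aspg to -0.66 (SE 0.15, adjusted p 0.00688). Glul, the pericentral glutamine synthetase, opposed Gls2 among the FFD regions, at 817, 655 and 311.5 CPM in FFD 1 to 3 against 629.6 to 711 in NCD.

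Hsd17b6 encodes a dehydrogenase of retinol and of 3-alpha-hydroxysteroids such as androstanediol (gene ID 27400, chromosome 10, 127990931 to 128007648). It stood at 94.8, 111 and 140.2 CPM in NCD 1 to 3 and at 70.5, 113 and 172 CPM in FFD 1 to 3. The FFD regions spread to both sides of the NCD regions, and the means were 115 ± 23.0 and 119 ± 51.1 CPM. The log2 fold change was 0.03 (SE 0.24, edgeR adjusted p 0.945, approximate 95% interval -0.43 to 0.49), and its sign turned in 7 of 21 alternatives.

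The wider list of hydroxysteroid and retinol dehydrogenases held 6 lower and 2 higher of 17 tested, where 11.1% of all tested genes were lower and 5.94% higher. Its median was -0.25, against -0.11 for all tested genes. Hsd17b2, which inactivates oestradiol and testosterone, fell to -0.91 (SE 0.14, edgeR adjusted p 0.000589). Srd5a1, the steroid 5-alpha-reductase, fell to -0.76 (SE 0.12, adjusted p 0.000826), Rdh11, which was under the detection limit in 2 of 3 FFD regions, to -1.105 (SE 0.18, adjusted p 0.000826) and Hsd17b7, of sterol synthesis, to -0.85 (SE 0.17, adjusted p 0.00309). Hsd17b11 and Hsd17b13, proteins of the lipid droplet, rose by 0.59 (SE 0.13, adjusted p 0.00774) and 1.00 (SE 0.24, adjusted p 0.011). Hsd17b13, itself periportal, stood at 1145 CPM in FFD 3 against 505 and 623 in FFD 1 and FFD 2.

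Pigr encodes the receptor that carries polymeric immunoglobulin across epithelia, in mouse hepatocytes and bile duct cells into bile (gene ID 18703, chromosome 1, 130826684 to 130852249). It stood at 183, 177.5 and 234 CPM in NCD 1 to 3 and at 85.0, 153 and 192 CPM in FFD 1 to 3. FFD 1 was the low region, at -1.22 against the NCD mean on the log2 scale, and FFD 3 lay within the NCD range. The log2 fold change was -0.47 (SE 0.22, edgeR adjusted p 0.1496, approximate 95% interval -0.90 to -0.04). Without FFD 3 Pigr passed as lower at -0.73 (adjusted p 0.0246).

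None of the 5 tested genes of the polymeric immunoglobulin list, Pigr included, passed the test, a count too small to set against the 17.1% of all genes that did. Jchain, which links IgA and IgM subunits, stood at -0.46 (SE 0.17, edgeR adjusted p 0.0801), above the detection limit in 3 of 6 regions. Igkc, a light chain, was at 24.8, 51.1 and 163 CPM in FFD 1 to 3 and at 33.6 to 73.4 CPM in NCD regions. Of 8 tested B and plasma cell genes 1 was lower, Ms4a1, the B cell antigen CD20, at -1.21 (SE 0.20, adjusted p 0.000971), and none was higher. For comparison, 11.1% of all tested genes were lower and 5.94% higher. Among 13 genes of pathways that induce Pigr 2 were higher and none lower. These were Nfkb1, a subunit of NF-kB, at 0.62 (SE 0.14, adjusted p 0.00914), and Ifngr1, the interferon gamma receptor, at 0.46 (SE 0.14, adjusted p 0.0417).

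Cdh1 encodes E-cadherin, which joins epithelial cells and in mouse liver lies in periportal hepatocytes and bile ducts (gene ID 12550, chromosome 8, 106603350 to 106670247). It stood at 44.2, 47.5 and 48.9 CPM in NCD regions 1 to 3. The 3 FFD regions, in the same order, gave 82.3, 76.1 and 40.1 CPM. FFD 1 and FFD 2 were above all NCD regions and FFD 3 below all of them. The log2 fold change was 0.50 (SE 0.20, edgeR adjusted p 0.0956, approximate 95% interval 0.11 to 0.89). Without FFD 3 Cdh1 passed as higher at 0.75 (adjusted p 0.00152), and with FFD 3 alone against NCD it stood at -0.23 (adjusted p 0.487). It passed at 0.90 under negative probe scaling (adjusted p 0.00167).

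Summed markers of bile duct and connective tissue cells were also highest in FFD 1 and FFD 2, and their part in the values of Cdh1 was not tested. Single members differed. The log2 fold change was positive for 5 of 6 cholangiocyte markers, with Krt7 at -0.23 (SE 0.17). It was positive for 10 of 11 stellate cell and portal fibroblast markers, with Thy1 at -0.63 (SE 0.21). Of 6 tested cholangiocyte markers 3 were higher in FFD and none lower, where 5.94% of all tested genes were higher and 11.1% lower. Their summed level was 109 to 125 CPM in NCD regions, 184 and 218 in FFD 1 and FFD 2 and 122 in FFD 3. Tspan8, a tetraspanin of bile duct cells, stood at 1.16 (SE 0.22, edgeR adjusted p 0.00266) and Anxa13 at 1.01 (SE 0.20, adjusted p 0.00339). Both lay under the detection limit in every NCD region, and the defining markers Krt19 and Epcam were above it in 1 of 6 regions each, FFD 2. Stellate cell and portal fibroblast markers were higher in 6 of 11 cases, led by the collagens Col3a1 at 3.04 (SE 0.28, adjusted p 4.2e-06) and Col1a1 at 3.28 (SE 0.33, adjusted p 9.27e-06). Col1a1 was under the detection limit in every NCD region. The 11 markers summed to 571 to 666 CPM in NCD, 1514 and 1509 in FFD 1 and FFD 2 and 896 in FFD 3. Portal vein and arterial endothelial markers were higher in 3 of 6 cases, led by Ednrb at 0.84 (SE 0.21, adjusted p 0.0138). Ednrb, too, was under the detection limit in every NCD region. The 6 markers summed to 201 to 210.1 CPM in NCD and to 332, 267 and 233 in FFD 1 to 3.

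**Figure D2:**
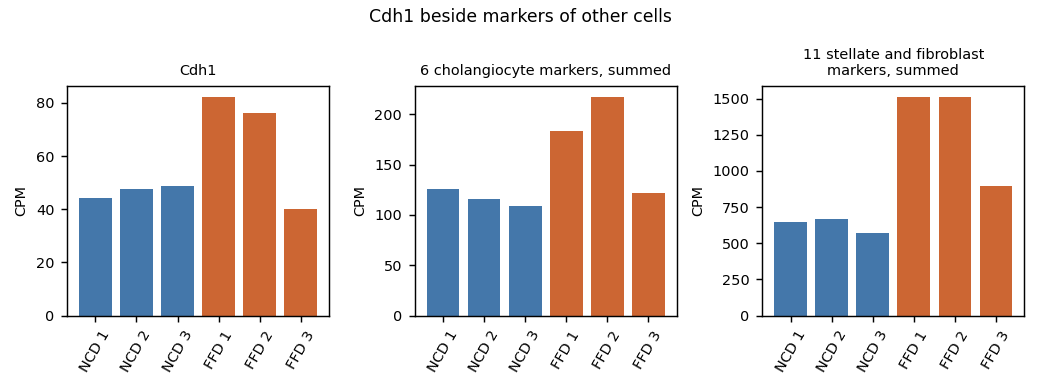
Level of Cdh1 (left) and the summed levels of 6 cholangiocyte markers (middle) and 11 stellate cell and fibroblast markers (right), in CPM from 0, as 1 bar per region (NCD blue, FFD orange). All panels are high in FFD 1 and FFD 2, and FFD 3 is below the NCD bars for Cdh1, within their range for the cholangiocyte markers and above them for the fibroblast markers.

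The adherens junction list, Cdh1 included, held 2 higher and 1 lower of 12 tested genes, where 5.94% of all tested genes were higher and 11.1% lower. Its median was 0.25, against -0.11 for all tested genes. The catenins that tie cadherins to actin, Ctnna1 at 0.52 (SE 0.13, edgeR adjusted p 0.0139) and Ctnnb1 at 0.42 (SE 0.14, adjusted p 0.0495), were the higher ones. Cdh2, N-cadherin, the other classical cadherin of hepatocytes, was the lower one, from 83.9 ± 2.70 to 58.0 ± 7.62 CPM (log2 -0.54, SE 0.13, adjusted p 0.0115). Of 4 tested transcriptional repressors of Cdh1, Zeb2 was higher at 0.63 (SE 0.12, adjusted p 0.00328) and none was lower.

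**Figure D3:**
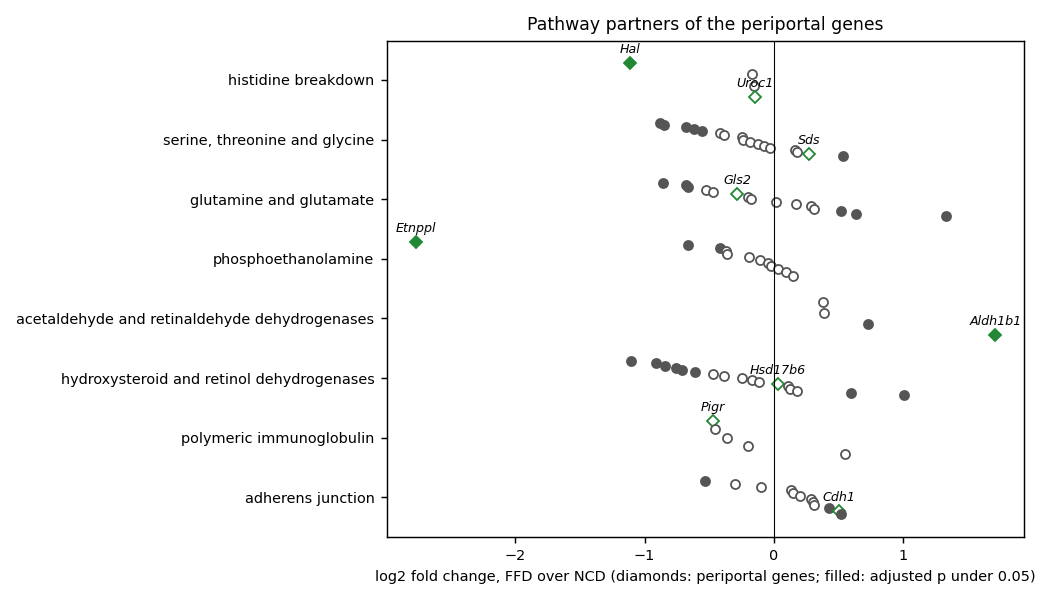
Log2 fold change of FFD over NCD (horizontal axis) for each tested gene of 8 lists that hold a periportal gene, drawn as diamonds for the 9 periportal genes and circles for their partners, filled where adjusted p is under 0.05. Etnppl (-2.77) and Aldh1b1 (1.71) lie outside the range of their lists, and Uroc1 lies beside Amdhd1 and Ftcd.

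The FFD regions lay further apart than the NCD regions in most of the 9 genes. Their highest FFD region was 1.48 to 3.12 times their lowest, against 1.11 to 2.12 times in NCD, and the ratio was larger in FFD for 8 of 9, against 51.5% of all tested genes. Whether NCD 1 and NCD 2, the most alike pair, come from 1 mouse is not given, and its part in the narrower NCD range was not tested. FFD 3 was the highest FFD region for 8 of the 9 genes, against 33.0% of all tested genes. The exception was Cdh1. The level in FFD 3 over the mean of FFD 1 and FFD 2 ranged from 1.44 for Uroc1 to 2.82 for Hal among those 8, and was 0.51 for Cdh1. In NCD regions NCD 3 was likewise highest for 8 of 9, against 31.8% of all genes, with Etnppl as the exception, lowest in NCD 3 as were 42.1% of all genes. Relative to the NCD mean the median of the 9 genes was -0.71 in FFD 1, -0.30 in FFD 2 and 0.19 in FFD 3 on the log2 scale, where all tested genes stood at -0.10, -0.12 and -0.13.

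Which of the 9 genes passed depended on FFD 3. Without it 2 were higher, Aldh1b1 and Cdh1, and 4 lower, Etnppl, Hal, Gls2 and Pigr, where 5.35% of all genes were higher and 8.84% lower. With FFD 3 alone against NCD 2 were higher, Aldh1b1 and Sds, and 1 lower, Etnppl, where 3.29% were higher and 2.95% lower. That fit assumes that FFD 3 varies as the NCD regions do. FFD 3 was singled out after its values were seen, and leaving out the extreme region narrows the FFD spread. The p-values without FFD 3 can therefore be too small. Hal also lost its call without NCD 2, NCD 3, FFD 1 or FFD 2.

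**Figure D4:**
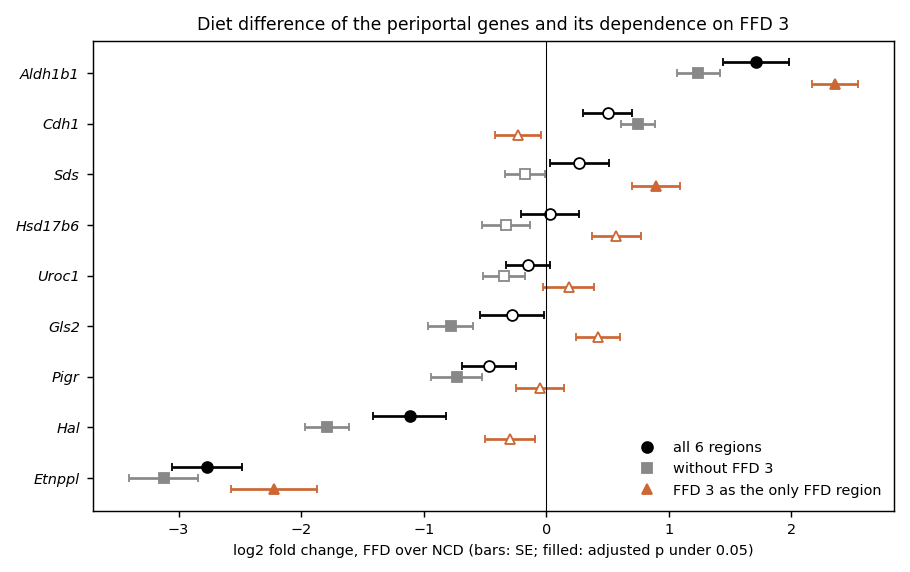
Log2 fold change of FFD over NCD (horizontal axis, bars for SE) of the 9 periportal genes with all 6 regions (black circles), without FFD 3 (grey squares) and with FFD 3 alone against NCD (orange triangles), filled where adjusted p is under 0.05. Etnppl and Aldh1b1 are filled in all 3 fits, while Hal, Gls2, Pigr and Cdh1 are filled without FFD 3 and open with FFD 3 alone.

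FFD 3 was also the highest FFD region for most other periportal genes and the lowest for most pericentral genes. Of 16 other periportal genes FFD 3 was the highest FFD region for 13 and the lowest for 1, against 33.0 and 35.3% of all tested genes. NCD 3 was the highest NCD region for 12 of the 16 and the lowest for 3, against 31.8 and 42.1%. Pck1, the key enzyme of gluconeogenesis, stood at 781.5, 1403 and 2649 CPM in FFD 1 to 3 and at 1902 to 2219 in NCD, and Arg1, the last enzyme of the urea cycle, at 519.6, 513 and 919.7 in FFD 1 to 3 and 605 to 793 in NCD. Of 15 pericentral genes FFD 3 was the highest for 1 and the lowest for 9, where 35.3% of all tested genes were lowest. NCD 3 was the highest NCD region for 6 of the 15 and the lowest for 7. Gulo, of the ascorbate path, stood at 247, 231 and 95.5 CPM in FFD 1 to 3 and at 195 to 295 in NCD, and Lect2, a secreted chemotactic protein, at 139.5, 81.0 and 53.8 in FFD 1 to 3 and 93.4 to 103 in NCD. The median of the 15 over the NCD mean was -0.10 in FFD 1, -0.50 in FFD 2 and -1.01 in FFD 3 on the log2 scale.

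General hepatocyte markers were also highest in FFD 3 among FFD regions, in 10 of 10 cases, against 33.0% of all tested genes. Among NCD regions NCD 3 was likewise highest for 9 of the 10, against 31.8%. The median log2 of FFD 3 over the mean of FFD 1 and FFD 2 was 0.54 for the hepatocyte markers and 0.91 for the 9 genes. It was 0.54 for the other periportal genes and -0.56 for the pericentral genes, and differences between the lists were not tested. Cps1 and Trf stand in both the hepatocyte and the other periportal list. Alb made up 4.93% of counts in FFD 3, 2.95 and 3.12% in FFD 1 and FFD 2 and 5.65 to 7.74% in NCD. Of the hepatocyte markers 5 of 10 were lower in FFD and none higher, where 11.1% of all tested genes were lower and 5.94% higher. The smallest p was that of Fgb, a fibrinogen chain, at -1.12 (SE 0.24, edgeR adjusted p 0.00547). Kupffer cell and macrophage markers were highest in FFD 3 for 7 of 10, against 33.0% of all tested genes. Of these 10, 5 were higher and 1 lower in FFD. Gpnmb (2.46, SE 0.32, edgeR adjusted p 9.78e-05), Trem2 (1.30, SE 0.20, adjusted p 0.000505) and Lyz2 (1.05, SE 0.18, adjusted p 0.00135) were higher. All of these were under the detection limit in every NCD region. Cd68 was higher at 1.065 (SE 0.19, adjusted p 0.00147). Timd4 was the lower one, at -0.68 (SE 0.22, adjusted p 0.0489), and Clec4f stood at -0.003 (SE 0.22). The 10 markers summed to 512 to 664 CPM in NCD and 734, 718 and 996 in FFD 1 to 3. Sinusoidal endothelial markers gave 1 higher and 1 lower of 6, and summed to 316 to 354 CPM in NCD and 355, 269 and 242 in FFD 1 to 3. The part of hepatocyte share, other cells and the zone under each area in the order of FFD regions was not tested.

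**Figure D5:**
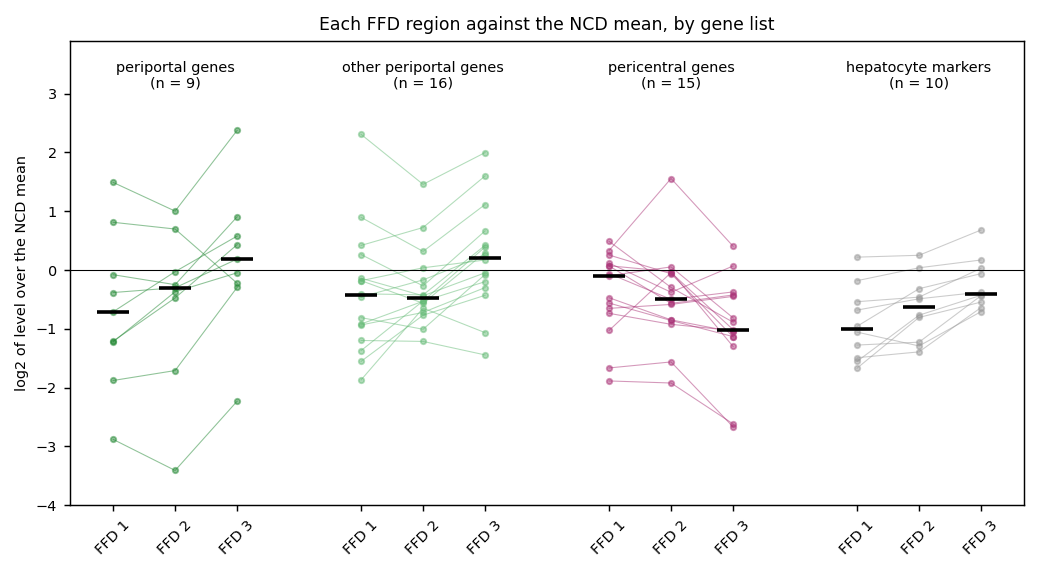
Log2 of the level in each FFD region over the NCD mean (vertical axis) for the 9 periportal genes, 16 other periportal genes, 15 pericentral genes and 10 hepatocyte markers, with a thin line per gene and black marks at the medians. The medians of the 9 genes are -0.71, -0.30 and 0.19 in FFD 1 to 3, and those of the pericentral genes -0.10, -0.50 and -1.01.

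Between the diets the other periportal genes gave 3 higher and 3 lower of 16, where 5.94% of all tested genes were higher and 11.1% lower. Mfsd2a, a lysolipid transporter, rose by 1.97 (SE 0.20, edgeR adjusted p 1.21e-05) and the lipid droplet protein Hsd17b13 by 1.00, while the glucose phosphatase G6pc fell to -1.28 (SE 0.18, adjusted p 0.000196) and the ribonuclease Rnase4 to -1.11 (SE 0.23, adjusted p 0.00402). Pericentral genes gave 1 higher and 6 lower of 15, with Oat, an aminotransferase of ornithine, at -0.83 (SE 0.17, adjusted p 0.00369) and Lgr5, a Wnt-responsive receptor under the detection limit in 5 of 6 regions, at -0.86 (SE 0.19, adjusted p 0.00732). The glutamate transporter Slc1a2 (-2.09, SE 0.18, adjusted p 2.44e-06) and Cyp1a2 (-1.88, SE 0.22, adjusted p 4.17e-05) fell most in that list. Both zonal lists held genes that moved each way, and a difference between them was not tested.

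Signals that set the zones were measured in part, and their counts stand beside 5.94% higher and 11.1% lower among all tested genes. Of 11 tested genes of the Wnt path 4 were lower, Lgr4 at -0.77 (SE 0.16, edgeR adjusted p 0.00444), Tcf7l2 at -0.60 (SE 0.13, adjusted p 0.00687), Znrf3 at -0.56 (SE 0.15, adjusted p 0.0165) and Lef1, which was under the detection limit in every region, and Ctnnb1 was higher. The pericentral endothelial signal Rspo3 stood at -0.36 (SE 0.16, adjusted p 0.133), and Wnt2 and Wnt9b were under the detection limit in every region. Among 13 glucagon and fasting regulators and their targets 1 was higher and 3 were lower. The glucagon receptor Gcgr stood at -0.27 (SE 0.13, adjusted p 0.169), Tat, a glucagon-induced aminotransferase, fell to -1.275 (SE 0.21, adjusted p 0.000949), the transcription factors Hnf4a and Klf15 to -0.51 (SE 0.14, adjusted p 0.0208) and -0.58 (SE 0.16, adjusted p 0.0226), and Foxo1 rose by 0.42 (SE 0.14, adjusted p 0.0488).

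The genes most like each of the 9 across the 6 regions, by Pearson correlation of log2 CPM, are given as a description, since 6 regions in 2 diets leave many genes with similar profiles. For Etnppl they were Map3k7cl, Tceal3 and Svs3a (r of 0.999, 0.998 and 0.996), and for Aldh1b1 Cisd3, Sqstm1 and Psme1 (0.998, 0.996 and 0.994). For Gls2 they were Arid4b, Uhrf2 and Pck1 (0.984, 0.983 and 0.983), which brings in a further periportal gene. Hal was most like Ints11, Slc3a1 and Nnmt, Sds like Baat, Nudt5 and Nkapd1, and Uroc1 like Hibadh, Rbm47 and Itih3. Pigr was most like Thap11, Inmt and Pdcd11, Hsd17b6 like Gas2, Kat2a and Nme1, and Cdh1 like Slc44a1, Myo5b and Plscr3. Over these 27 genes r was 0.976 or higher. Among them Map3k7cl, at 12.2 to 18.9 CPM, was under the detection limit in every region, so background is a part of its profile. Some others, such as Arid4b and Nkapd1, were under the limit in most regions.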

How the data were processed

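RNA was measured in 6 Albumin-positive regions with the GeoMx mouse probe set, and a no template control is not used. Values in the deposited quality-controlled table are expected counts, of which 4 of 19963 targets are not whole numbers throughout. A deposited filtered table, by a rule not stated, holds 13099 of them, with 1 differing value, in none of the 9 genes. The authors also deposited a signal, Q3, made from the filtered counts by scaling regions to 1 upper quartile. Per the file headers the segment table gives counts of nuclei and reads, saturation as a percent (99.1 to 99.3), and area, slide position, probes per target and limit of quantitation in units or by formulas not stated. The submitters' processing notes list GRCm38 and edgeR with no role or version.

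Counts were rounded and tested for 13095 genes that the filtered table lists, without its 4 targets that are not genes (0.0145 to 0.0192% of counts for all 12 such targets of the full table). The test was edgeR 4.0.16 (glmQLFit, glmQLFTest, R 4.3.3) scaled by the upper quartile (percentile 75). Diet was the single term, and p was adjusted by Benjamini-Hochberg across the 13095 genes with a threshold of 0.05. The fit was checked on simulated data with independent regions and the same spread for every gene. That check does not cover related or outlying regions. SE is approximate, the absolute log2 fold change over the square root of F, and intervals are normal intervals from it. A positive fold change means higher in FFD, with n of 3 regions in each diet. A gene was above the detection limit where its count exceeded 2 times that of the negative probes (210 summarised). Gene coordinates and promoters are RefSeq's for GRCm38.p6, matched by gene ID (9 of 9 genes, and 6 of 9 with a promoter). The position of a probe within its gene is not given in the sources used here.

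The 9 genes and 21 further lists were chosen by name with earlier results of these data known. The text names up to 4 members of a list past the test, by smallest p, and the list's leading 2 if it had none. Some members counted in the lists are not reported by name here. Igkc, Glul, Phykpl, Pcyt2, Agxt, Arg1, Pck1, Gulo, Lect2, Clec4f, Krt7, Krt19, Epcam, Thy1, Rspo3, Wnt2, Wnt9b and Gcgr, and members that complete a count, were added for their role or pattern after their values were seen, and the comparison of FFD 3 with the other regions was too. The alternatives were 4 scalings, DESeq2 1.42.0, limma 3.58.1 (trend on Q3, voom), the robust option, 3 filters, background subtraction with a floor of 1, each region left out, FFD 3 alone and 2 detection limits. Added after seeing the data were NCD 1 and NCD 2 summed, and NCD 3 and FFD 3 left out together. The fit with FFD 3 alone was planned with the values of FFD 3 already seen.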

Additional observations from a re-analysis of the deposited data

How the results depend on the processing

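No paired analysis was possible because replicate numbers here follow accession order and pair nothing. Groups of 3 regions were not tested for single deviating values. Etnppl held its call in 21 of 21 alternatives and Aldh1b1 in 20, lost with edgeR's robust option (1.71). Leaving out 1 region at a time gave log2 fold changes of -1.79 to -0.85 for Hal, -0.17 to 0.48 for Sds, -0.78 to 0.0190 for Gls2, -0.73 to -0.20 for Pigr, -0.345 to 0.0240 for Uroc1, -0.33 to 0.29 for Hsd17b6 and 0.32 to 0.75 for Cdh1. Hal was not past the test with DESeq2 (-1.005), the robust option (-1.12) or FFD 3 alone (-0.30). With FFD 3 alone Sds passed at 0.89, while Gls2 (0.42), Uroc1 (0.18) and Cdh1 (-0.23) changed sign. Under negative probe scaling Sds (0.64) and Cdh1 (0.90) passed, and Gls2 (0.11) and Uroc1 (0.23) changed sign. Without NCD 3 and FFD 3 together Gls2 (-0.72), Pigr (-0.59) and Cdh1 (0.78) passed, and Sds (-0.0306) and Hsd17b6 (-0.16) changed sign. Hsd17b6 also changed sign with limma trend (-0.0340), voom (-0.0273), background subtraction (-0.0278) and NCD 1 and NCD 2 summed (-0.0397). The causes of these changes were not tested.

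Of the 9 genes, 3 were higher under negative probe scaling, 0 with the robust option, 2 with FFD 3 alone and 2 without NCD 3 and FFD 3. In the DESeq2 test 1 was lower, as with the robust option (1) and FFD 3 alone (1), and 4 were lower without NCD 3 and FFD 3. With 1 region left out, 1 to 2 were higher and 1 to 4 lower. Over all genes, the higher count was 3632 under negative probe scaling, 431 with FFD 3 alone and 511 with NCD 1 and NCD 2 summed, and 396 to 853 with 1 region left out (396 without NCD 2, 486 without NCD 1). The lower count was 893 under TMM, 894 under DESeq2 size factors, 604 under total counts, 206 under negative probe scaling, 462 in DESeq2's test, 795 with background subtracted, 386 with FFD 3 alone and 914 with NCD 1 and NCD 2 summed, and 617 to 1778 with 1 region left out (617 without NCD 2, 704 without NCD 1, 821 without FFD 2). Above the detection limit in all 6 regions were 8 of the 9 genes, 7 by the deposited limit of quantitation and 6 at 3 times the negative probe level. By these cuts Gls2, Aldh1b1 and Etnppl are the ones that depth and background limit. Cdh1 was close to the last cut, at 3.16 to 3.84 times the negative probe level in NCD and 3.77 times in FFD 3.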
